A study of Mus musculus with 5 samples.

Results

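Cxcr3, a chemokine receptor of effector T cells, and 2 of its ligands, Cxcl9 and Cxcl10, were measured by scRNA-Seq in MC38 tumors and in tumor-draining lymph nodes (TDLNs). The 3 genes were chosen by name. All 3 are among the 33696 genes of the tumor matrices and the 32285 genes of the TDLN matrices, 34031 different genes in all. The study asked how inhibition of the kinase JAK1, started after combined checkpoint inhibition (CPI), changes the antitumor response. The comparisons here ask which cells held the ligands, which held the receptor, and how their levels differed between treatments in the tumor.

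MC38, a transplantable mouse colon cancer line, and TRAMP-C2, a mouse prostate cancer line, were implanted under the skin of male C57BL/6J mice aged 8 to 10 weeks. Mice of the isotype group received control antibodies at days 3, 6 and 9. CPI mice received anti–PD-1 and anti-CTLA4 antibodies on the same days. The groups CPI + ABT-317 and isotype + ABT-317 also received the JAK1 inhibitor ABT-317 at 20 mg/kg from day 12, and tissue was taken at day 15. By the paper's methods, tumor cells were first sorted by CD45, a leukocyte protein, and both fractions were loaded in equal numbers. TDLN cells were not sorted. Class shares of barcodes and of UMIs in the tumors therefore follow this mixing in part. MC38 cells of all 4 treatments were stained with hashtag antibodies, which mark the treatment of a cell, and were pooled into 2 droplet reactions. A deposited key names 1 hashtag for each treatment in each reaction and names no mouse. The unit of comparison is therefore the sum of counts of 1 treatment in 1 reaction (n = 2 per treatment), and p-values measure only the spread between these sums, which may be technical. The 3 TDLN reactions hold inguinal lymph nodes of mice with TRAMP-C2 tumors, and their antibody features hold 0 counts, so TDLN values pool the treatments that the key names for them, which are isotype, CPI and CPI + ABT-317.

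CXCR3 guides activated T cells and NK cells along gradients of CXCL9, CXCL10 and CXCL11. The ligands are made by macrophages, dendritic cells (DCs) and stromal cells after exposure to interferons, and IFN-γ acts on their genes through its receptor, the kinases JAK1 and JAK2, and IRF1. Cxcl10 also responds to type I interferon and NF-κB, whereas Cxcl9 is known for its dependence on IFN-γ. CXCR3 itself is induced in T cells by the transcription factor T-bet, which Tbx21 encodes.

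Cxcl9 and Cxcl10 are neighbors on the minus strand of chromosome 5 in GRCm38, Cxcl9 from 92321347 to 92328079 and Cxcl10 from 92346638 to 92348889, with 18558 bases between them. Cxcl11 follows from 92359544 to 92365485, 10654 bases beyond Cxcl10, is annotated as a polymorphic pseudogene, and is listed in the tumor matrices alone. Cxcr3 lies on the minus strand of the X chromosome from 101731535 to 101734269. The 250 bases before the start of the ligand genes are shown as background, and their part in the ligand levels was not tested. They are RefSeq sequence of GRCm38.p6, minus strand, chr5:92328080-92328329 for Cxcl9 and chr5:92348890-92349139 for Cxcl10, with capitals where an interferon-stimulated response element (ISRE) type match (GAAANNGAAA) or a match to the NF-κB consensus was found on either strand.
Cxcl9: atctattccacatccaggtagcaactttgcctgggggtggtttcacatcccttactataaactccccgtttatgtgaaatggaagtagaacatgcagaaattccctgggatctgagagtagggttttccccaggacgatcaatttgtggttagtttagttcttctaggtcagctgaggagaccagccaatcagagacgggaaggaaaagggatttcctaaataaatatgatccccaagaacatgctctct
Cxcl10: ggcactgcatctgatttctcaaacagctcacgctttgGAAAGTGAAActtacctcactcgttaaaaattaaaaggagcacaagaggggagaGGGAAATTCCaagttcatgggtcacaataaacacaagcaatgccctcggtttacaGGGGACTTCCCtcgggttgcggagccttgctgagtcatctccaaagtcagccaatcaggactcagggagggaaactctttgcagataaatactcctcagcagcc

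The Cxcl10 window held 1 ISRE-type match, which ended 204 bases before the start, and 3 NF-κB consensus matches, of which the 2 nearest the start overlap in the third run of capitals. Of 32851 promoter windows of the same length, 2.98% held the ISRE-type letters and 7.25% the NF-κB consensus. The Cxcl9 and Cxcr3 windows held neither, and none of the 3 windows held the GAS-type (IFN-γ–activated site) letters TTCNNNGAA, which 7.02% of windows had. A match is a description of letters. Only exact matches were sought, so sites with other letters are missed, and these windows cover only part of the regulatory sequence of a gene.

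The tumor reactions held 37774 and 27582 barcodes with 435031691 and 377184807 gene UMIs, and 15219 and 9682 of these barcodes (40.3% and 35.1%) met the limits of the study's methods (200 genes or more, fewer than 2500 genes, less than 10% of counts from mitochondrial genes). A UMI (unique molecular identifier) stands for 1 captured RNA molecule. A further 18543 and 13650 barcodes had 2500 or more genes and are given apart. Clusters were named with "-like" from marker lists and were made without the 3 genes. Tumor epithelial and B cell lists named no cluster. Of barcodes under 2500 genes, 6644 and 2644 stayed in unnamed clusters. The 2 tumor reactions shared 174 barcode sequences, and the pairs of TDLN reactions shared 531 to 4797, which was 8.15% to 8.53% of the smaller reaction in each pair. Levels are in CPM, the UMIs of a gene for each 1000000 gene UMIs of the population, with exact Poisson 95% intervals that cover counting error only. UMI counts are not scaled by gene length, so ratios of 2 genes are compared between populations and not read as ratios of molecules.

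Among named classes under 2500 genes, Cxcl10 was highest in macrophage-like cells (5928 and 5323 barcodes). Its level there was 870.5 CPM (95% interval 857.7 to 883.5) in reaction 1 and 986.7 CPM (973.2 to 1000.3) in reaction 2, where all barcodes together had 515 and 708 CPM. These cells were 39.0% and 55.0% of barcodes and held 70.1% and 85.6% of the Cxcl10 UMIs in barcodes under 2500 genes. Over barcodes of all depths they held 23.5% and 29.1%, and unnamed barcodes of 2500 or more genes held 66.6% and 65.3%. Granulocyte-like cells followed with 234 and 379 CPM, then fibroblast-like cells with 214 and 188 CPM. Pericyte-like cells had 163 and 172 CPM, endothelial-like cells 128 and 158 CPM, DC-like cells 134 and 62.9 CPM, and T-like cells 89.4 and 57.02 CPM, and the order of DC-like and endothelial-like cells changed between reactions. The macrophage-like class lay above the other named classes in both reactions. Unnamed clusters together had 290 and 335 CPM, and among them cluster 9, led by Cadm1, Zdhhc14 and Lyn (740 and 218 barcodes), had 707 and 760 CPM. Among barcodes of 2500 or more genes, macrophage-like cells had 645 and 798 CPM and the few pericyte-like cells (20 and 33 barcodes) 524 and 824 CPM.

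Among named classes under 2500 genes, Cxcl9 had 2 classes at the top. Macrophage-like cells had 281.4 and 271.1 CPM, and DC-like cells, a small class (126 and 106 barcodes) led by Ccr7, Ccl22, Ccl17 and Mgl2, had 294.9 CPM (245.1 to 351.9) and 215.1 CPM (171.1 to 267.0). These 2 classes changed order between the reactions. Pericyte-like cells had 163 and 112 CPM, endothelial-like cells 112 and 152 CPM, fibroblast-like cells 84.9 and 50.4 CPM, and T-like cells 53.6 and 18.5 CPM. Granulocyte-like cells held only 7 and 3 Cxcl9 UMIs (78.1 and 87.5 CPM). Because DC-like cells were few, macrophage-like cells held 72.3% and 86.4% of the Cxcl9 UMIs in barcodes under 2500 genes. Over barcodes of all depths the share was 44.5% and 54.9%, and unnamed clusters held 46.5% and 38.5%. At 2500 or more genes, the few pericyte-like cells (20 and 33 barcodes) had 197 and 232 CPM, above macrophage-like cells with 171 and 214 CPM. Endothelial-like cells (18 and 21 barcodes) had 73.2 and 405 CPM there.

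The ratio of the ligands differed among these classes. For each Cxcl9 UMI, macrophage-like cells had 3.09 and 3.64 Cxcl10 UMIs and DC-like cells 0.455 and 0.293. Unnamed clusters had 4.25 and 4.88. The DC-like values depended on the clustering. With finer clusters (Leiden resolution 1.0 in place of 0.5) the class also took in a cluster of 952 barcodes led by Cadm1, Slc8a1 and Zdhhc14, whose closest marker list was that of macrophages, and then held 1233 and 378 Cxcl10 UMIs (584 and 443 CPM) beside 521 and 199 Cxcl9 UMIs (247 and 233 CPM). The cluster led by Ccr7 and Ccl22, with 234 barcodes at that resolution, had 99.2 CPM of Cxcl10 and 255.3 CPM of Cxcl9 over both reactions. C1qa, a complement gene of macrophages, was read beside the ligands, since free RNA from lysed cells can enter all droplets of a reaction. Macrophage-like cells had 8.14 and 6.03 Cxcl9 UMIs for each 100 C1qa UMIs, and DC-like cells had 273 and 122. The part of free RNA in these levels was not tested.

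**Figure D1:**
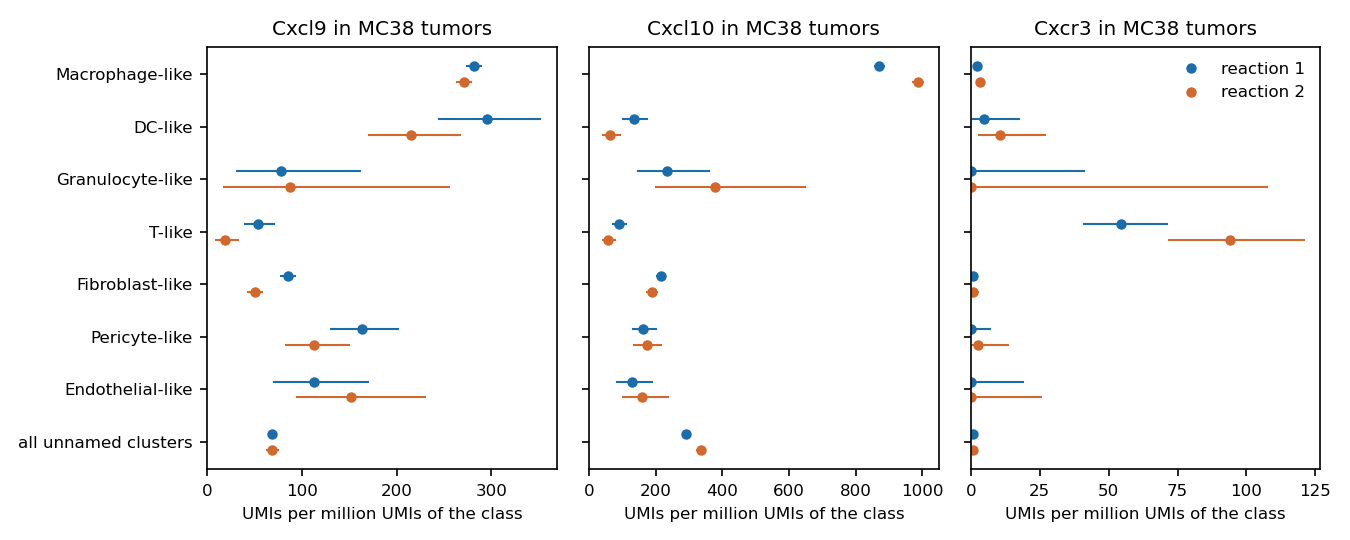
Cxcl9, Cxcl10 and Cxcr3 in MC38 tumors by class, in CPM over barcodes under 2500 genes, with 1 point per reaction and exact Poisson 95% intervals as lines. Cxcl10 stands highest of the named classes in macrophage-like cells (870.5 and 986.7), Cxcl9 in macrophage-like and DC-like cells, and Cxcr3 in T-like cells (54.6 and 94.0).

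Among macrophage-like cells the ligands differed by cluster. Cluster 1, led by C1q genes and Ccl12 (2318 and 1769 barcodes), had the most Cxcl9, 387.0 and 469.1 CPM, and 627.8 and 665.1 CPM of Cxcl10. Cluster 0, led by Arg1, Trem2 and Hmox1 (2221 and 2275 barcodes), had 176.1 and 185.7 CPM of Cxcl9 and 885.5 and 1049.8 CPM of Cxcl10. The ratio of Cxcl10 to Cxcl9 UMIs was 5.03 and 5.65 in cluster 0 and 1.62 and 1.42 in cluster 1, so the 2 clusters did not overlap in either gene. The cycling cluster 3 had 1337.7 and 1264.1 CPM of Cxcl10, the highest of these clusters, and 360.3 and 240.0 CPM of Cxcl9. Cluster 10, led by Ccl6, Lyz1, Lyz2 and F13a1 (533 and 355 barcodes), had 453.5 and 695.1 CPM of Cxcl10 and 208.5 and 185.2 CPM of Cxcl9.

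Fewer macrophage-like barcodes held Cxcl9 than Cxcl10. A Cxcl9 UMI was found in 23.4% and 21.8% of them and a Cxcl10 UMI in 55.3% and 55.6%. In all barcodes under 2500 genes, the 1% with the most Cxcl9 held 34.4% and 34.2% of its UMIs, and the same share for Cxcl10 was 17.7% and 15.9%. The highest barcode held 67 and 54 Cxcl9 UMIs and 75 and 82 Cxcl10 UMIs. In macrophage-like cells the 5% of barcodes with the most Cxcl9 held 63.8% and 65.1% of its UMIs with isotype and 84.6% and 82.3% with CPI. They held 37.0% and 48.8% with CPI + ABT-317 and 54.5% and 71.6% with isotype + ABT-317. Barcodes under 1000 UMIs were left out of all thinned values. With the other 5796 and 5170 macrophage-like barcodes thinned to 1000 UMIs, Cxcl10 was found in 43.9% and 41.9% of those with Cxcl9 and in 35.2% and 36.1% of those without.

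Cxcr3 was highest in T-like cells (767 and 532 barcodes), at 54.6 CPM (41.1 to 71.1) and 94.0 CPM (71.9 to 120.8). A Cxcr3 UMI was found in 51 and 57 of these barcodes, 6.65% and 10.7%, at a median of 1121 and 1009.5 UMIs per barcode. In macrophage-like cells 0.624% and 1.15% of barcodes had one at a median of 3157 and 3691 UMIs, and the level was 2.04 and 3.34 CPM. With both thinned to 1000 UMIs, the shares were 5.38% and 6.32% of T-like and 0.173% and 0.271% of macrophage-like barcodes. Only 502 and 269 T-like barcodes had the depth for this, and 5796 and 5170 macrophage-like barcodes. DC-like cells held 2 and 4 Cxcr3 UMIs (4.80 and 10.5 CPM), fibroblast-like cells had 0.560 and 0.822 CPM, and endothelial-like and granulocyte-like cells held 0 UMIs in both reactions. Of the 113 and 144 Cxcr3 UMIs in barcodes under 2500 genes, T-like cells held 48.7% and 42.4% and macrophage-like cells, a much larger class, 36.3% and 47.9%. Over barcodes of all depths these shares were 26.8% and 27.2%, and 24.4% and 47.4%. Without barcodes of several hashtags, the Cxcr3 UMIs of macrophage-like cells went from 41 to 11 and from 69 to 32 (0.799 and 2.00 CPM), and T-like cells had 57.8 and 98.4 CPM. For each 100 UMIs of the T cell gene Cd3e, Cxcr3 had 13.8 and 14.7 UMIs in T-like cells and 25.5 and 44.8 in macrophage-like cells.

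T-like barcodes were also split by the genes they held. Barcodes with Cd8a or Cd8b1 had 65.9 and 78.2 CPM of Cxcr3 (25 and 21 UMIs), those with Cd4 but no Cd8 gene or Foxp3, the regulatory T cell factor, had 79.6 and 136.5 CPM (4 and 7 UMIs), and those with Foxp3 had 96.8 and 78.4 CPM (3 and 2 UMIs). Barcodes with NK cell genes and no T cell genes (16 and 22) held 1 UMI in all, and the remaining 425 and 243 barcodes, which fell in none of these subsets, held 22 and 31 UMIs (43.2 and 121 CPM). The intervals of the Cd8, Cd4 and Foxp3 subsets overlapped, and no order among them could be read at this depth.

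The tumor reactions also carried an antibody against CD183, the CXCR3 protein. T-like cells had 615 and 596 CD183 counts per 10000 antibody counts and macrophage-like cells 575 and 564. Granulocyte-like cells had 586 and 580, and DC-like cells had 572 and 574, below macrophage-like cells in reaction 1 and above them in reaction 2. Fibroblast-like cells had 503 and 487, pericyte-like cells 489 and 477, and endothelial-like cells 484 and 491. The class differences in antibody counts were thus small next to those in Cxcr3 RNA. T-like barcodes with a Cxcr3 UMI had 609 and 610 CD183 counts per 10000 and those without 616 and 595, so the antibody did not separate them. The antibody against CD3 also differed little, with 200 and 199 in T-like, 183 and 182 in macrophage-like and 183 and 180 in fibroblast-like cells. CD8a had 38.2 and 38.1 in T-like cells, where the highest isotype control had 35.6 and 34.6. CD11b, a myeloid protein, had 184 and 202 in macrophage-like and 40.6 and 40.9 in T-like cells. The CD183 counts are therefore not read as CXCR3 protein on each class. The mean of the 9 isotype control antibodies was 22.5 per 10000 in DC-like cells of both reactions, and the highest was 33.2 and 34.5.

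By likeness of level over 11 classes and clusters in 2 reactions (22 points, log2(CPM + 1), 11707 genes), which share libraries and depth, the genes closest to Cxcr3 were Cd6 and Klrc1 (r = 0.94 for both), Gimap7, Tbx21 and Dkkl1 (0.93). Among those closest to Cxcl9 were Cd40 and Csf2rb2 (0.91), Sdc3 and Clec7a (0.90). Cxcl10 lay closest to Sdc4 (0.93), Hmox1 (0.92), Gpr84 (0.90), Trem2 and Arg1 (0.89). The 2 ligands had r = 0.53 with each other. These correlations are descriptions, and neither ligand was among the genes closest to the other.

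The genes upstream of the ligands were read in the same classes. Ifng, which encodes IFN-γ, had a mean of 306 CPM in T-like, 28.9 CPM in DC-like and 4.57 CPM in macrophage-like cells. Tbx21 had 129 CPM and Il12rb2, an IL-12 receptor chain, 147 CPM in T-like cells. Il12b, which encodes an IL-12 subunit, had 220 CPM in DC-like and 42.5 CPM in macrophage-like cells. Cxcl11 had 30.7 CPM in macrophage-like cells, 12.2 CPM in DC-like cells and 0 in T-like cells. As it is annotated as a polymorphic pseudogene, its RNA is not read as ligand protein. Ackr3, a scavenging receptor for CXCL11, and Dpp4, a protease that trims the ligands, were found mainly in fibroblast-like cells, at 354 and 155 CPM.

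In TDLNs the 3 genes were scarce in the RNA counts, and few barcodes could be named. Unnamed clusters held 61689 of 62322, 54289 of 56229 and 6470 of 6518 barcodes and 97.4%, 95.3% and 96.9% of the Cxcr3 UMIs. No macrophage-like or DC-like class was named with these clusters. At Leiden resolution 1.0 a DC-like class of 225, 935 and 39 barcodes was named. It held 4, 34 and 0 Cxcl10 UMIs (3.88, 9.49 and 0 CPM) and 0, 5 and 0 Cxcl9 UMIs. A macrophage marker gate took 33, 53 and 6 barcodes, with 0, 1 and 1 Cxcl10 UMIs and 0 Cxcl9 UMIs. These counts are too few for a firm level. T-like cells were 1.01%, 3.36% and 0.736% of barcodes, and the T cell marker gate took 6225, 12526 and 927 barcodes. T-like cells (630, 1890 and 48 barcodes) had 11.5, 7.38 and 22.0 CPM of Cxcr3 from 20, 34 and 3 UMIs, below the T-like cells of MC38 tumors in each reaction, although the interval of reaction 3 (4.54 to 64.3) overlapped that of tumor reaction 1, and although the tissues come from mice with different tumors and were processed apart, and the difference was not tested. All TDLN barcodes had 6.14, 7.17 and 7.81 CPM. Without barcodes that held UMIs of both the T and the B cell list, TDLN T-like cells had 10.5, 4.36 and 32.5 CPM (11, 13 and 2 UMIs), so that reaction 2 lay under the level of all its barcodes. Barcodes gated on T cell markers had 6.07, 6.80 and 8.76 CPM and a Cxcr3 UMI in 0.996%, 1.09% and 1.08%, and barcodes gated on B cell markers had 4.27, 7.96 and 10.6 CPM and 0.638%, 1.10% and 1.19%. The T gate lay above the B gate in reaction 1 and below it in reactions 2 and 3. A cluster led by Ly6d, Cd79a and MHC class II genes (384, 869 and 7 barcodes) held 0 Cxcr3 UMIs, which allows up to 4.53, 2.54 and 271 CPM. Cxcl9 had 0.855, 1.41 and 1.28 CPM over all TDLN barcodes, and Cxcl10 had 5.08, 6.95 and 7.41 CPM, both far under their levels over all tumor barcodes. Tumor cells were sorted by CD45 before loading and TDLN cells were not. TDLN reaction 1 held 62575 barcodes, more than the cells that the paper's methods load per reaction. Whether every TDLN barcode stands for a cell was not tested, so these values need not describe lymph node cells.

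**Figure D2:**
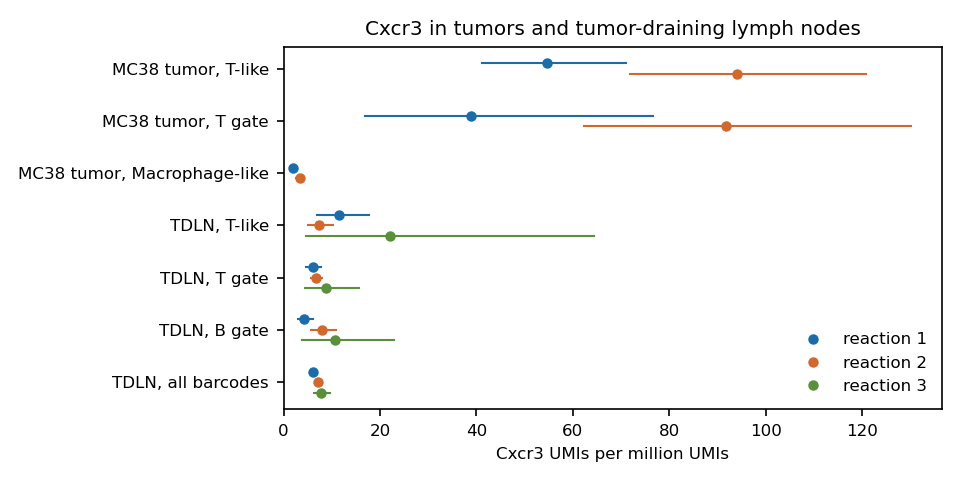
Cxcr3 in CPM in MC38 tumors (2 reactions) and TDLNs (3 reactions), by class or marker gate, with exact Poisson 95% intervals as lines. T-like cells of the tumors (54.6 and 94.0) lie above the points of all TDLN populations, the interval of T-like cells in TDLN reaction 3 (3 UMIs) reaches 64.3, and the TDLN T and B gates lie within the same range.

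The cells that carried each hashtag differed in kind, which bears on every comparison of treatments. T-like cells were 27.9% and 28.9% of the CPI barcodes under 2500 genes, 0.591% and 0.577% of the isotype barcodes, 0.227% and 2.61% with CPI + ABT-317, and 0.154% and 0.326% with isotype + ABT-317. Macrophage-like cells were 12.1% and 14.6% with CPI, 61.4% and 80.8% with isotype, 58.0% and 61.4% with CPI + ABT-317, and 37.5% and 64.5% with isotype + ABT-317. Fibroblast-like cells were 41.9% and 41.4% with CPI and 0.254% to 1.68% in the other 6 sums, and pericyte-like cells were 4.71% and 4.82% with CPI and at most 0.461% elsewhere. The share of barcodes with fewer than 2500 genes was 94.4% and 90.4% for CPI, 56.2% and 51.5% for isotype, and between 15.2% and 24.1% for the ABT-317 groups. A level over all barcodes of a treatment therefore follows both the makeup of the barcodes and the RNA per cell, which cannot be told apart there. The lowest hashtag counts called were 38 and 27 for CPI, 203 and 99 for CPI + ABT-317, 59 and 38 for isotype, and 90 and 44 for isotype + ABT-317. By flow cytometry, the paper found no difference between CPI and CPI + ABT-317 in CD8+ T cell counts of these tumors. The part of hashtag calling in the differences of makeup and depth was not tested.

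Over all barcodes under 2500 genes, Cxcl9 had 206 and 213 CPM with isotype, 71.1 and 45.9 CPM with CPI, 392 and 502 CPM with CPI + ABT-317, and 83.3 and 155 CPM with isotype + ABT-317. The 4 treatments did not overlap, with CPI lowest and CPI + ABT-317 highest. Cxcl10 had 695 and 900 CPM with isotype, 159 and 169 CPM with CPI, 721 and 757 CPM with CPI + ABT-317, and 562 and 972 CPM with isotype + ABT-317, so CPI alone stood apart. Cxcr3 had 0.900 and 1.89 CPM with isotype, 9.53 and 14.2 CPM with CPI, 0 and 2.03 CPM with CPI + ABT-317, and 0.409 and 0 CPM with isotype + ABT-317. Receptor and ligands thus stood in opposite order in the CPI sums.

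In edgeR's quasi-likelihood test over 12515 genes, of which 40.0% passed an adjusted p of 0.05 between CPI and isotype, Cxcl9 fell by 1.94 ± 0.33 (log2, SE; adjusted p = 0.00119), Cxcl10 fell by 2.39 ± 0.30 (adjusted p = 0.000211), and Cxcr3 rose by 2.97 ± 0.53 (adjusted p = 0.00171). From CPI to CPI + ABT-317, where 30.3% of genes passed, Cxcl9 rose by 2.91 ± 0.34 (adjusted p = 0.000302), Cxcl10 rose by 2.15 ± 0.30 (adjusted p = 0.000774), and Cxcr3 fell by 3.42 ± 0.82 (adjusted p = 0.0120). With such shares of all genes called, these calls do not single the 3 genes out. Between CPI + ABT-317 and isotype + ABT-317, where 0.152% of genes passed, the Cxcl9 difference was 1.97 ± 0.33 and missed the threshold (adjusted p = 0.0582), and it passed with the reaction as a block (2.00, adjusted p = 0.00131, 2.74% of genes passing). Cxcl10 differed by -0.014 there (adjusted p = 1.00). Between isotype + ABT-317 and isotype, 0.0% of genes passed (1779 at an unadjusted p under 0.05, and 33 calls by DESeq2), and Cxcl9 differed by -0.99 ± 0.32 (adjusted p = 0.280), which passed with the block (-1.04, adjusted p = 0.0206, 11.4% of genes passing). The effect of CPI with ABT-317 exceeded that without it by 3.91 ± 0.47 for Cxcl9 (adjusted p = 0.000905, 21.1% of genes passing) and by 2.38 ± 0.41 for Cxcl10 (adjusted p = 0.00422). Without the upper limit on genes, the Cxcl9 difference was -0.020 from isotype to CPI (adjusted p = 0.939) and -0.13 from CPI to CPI + ABT-317 (adjusted p = 0.564), so neither Cxcl9 call was found there and the second changed sign. The Cxcl10 differences were then -0.67 (adjusted p = 0.00462) and 0.79 (adjusted p = 0.00156). In both contrasts more genes passed without the limit than with it, so these calls do not single Cxcl10 out either.

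Within macrophage-like cells, Cxcl9 was highest with CPI + ABT-317. It had 254.9 and 235.7 CPM with isotype (3532 and 3499 barcodes), 147.4 and 179.0 CPM with CPI (226 and 200), 645.2 and 666.2 CPM with CPI + ABT-317 (256 and 329), and 175.6 and 219.0 CPM with isotype + ABT-317 (244 and 198). Both CPI + ABT-317 sums lay above every other sum. Cxcl10 had 894 and 992 CPM with isotype, 419 and 496 CPM with CPI, 968 and 1007 CPM with CPI + ABT-317, and 1072 and 1351 CPM with isotype + ABT-317. For Cxcl10 the CPI sums lay below all others, and CPI + ABT-317 lay within the range of the other groups.

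Between CPI + ABT-317 and isotype + ABT-317, where 2.73% of 7840 genes passed in these cells (7.82% with the reaction as a block), Cxcl9 rose by 1.77 ± 0.16 (log2, SE; adjusted p = 5.1e-05, edgeR). From CPI to CPI + ABT-317, where 12.4% of genes passed (20.8% with the block), Cxcl9 rose by 2.02 ± 0.17 (adjusted p = 1.2e-05) and Cxcl10 rose by 1.12 ± 0.17 (adjusted p = 0.000887). From isotype to CPI, where 22.5% passed, Cxcl9 fell by 0.59 ± 0.17 (adjusted p = 0.0236) and Cxcl10 fell by 1.05 ± 0.17 (adjusted p = 0.000582). The Cxcl9 call was lost with marker gates (-0.45, adjusted p = 0.328) and with centred hashtag counts (-0.23, adjusted p = 0.237). The effect of CPI on Cxcl9 with ABT-317 exceeded that without it by 2.37 ± 0.23 (adjusted p = 7.6e-05, 5.51% of genes passing, 13.7% with the block). For Cxcl10 this difference of effects was 0.79 ± 0.23 (adjusted p = 0.0654), and it passed with the block (0.80, adjusted p = 1.2e-06).

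In edgeR without the block, Cxcl10 did not pass the threshold between CPI + ABT-317 and isotype + ABT-317 (-0.26 ± 0.16, adjusted p = 0.542). Nor did it between isotype + ABT-317 and isotype (0.33 ± 0.16, adjusted p = 0.999). With the block it passed in the first contrast (-0.25, adjusted p = 0.0171) and in the last (0.32, adjusted p = 0.00318). In that last contrast 0.0255% of genes passed (1.45% with the block) and Cxcl9 differed by -0.35 ± 0.15 (adjusted p = 0.976, and 0.0763 with the block). The higher Cxcl9 with CPI + ABT-317 over isotype + ABT-317 was therefore not matched by Cxcl10.

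**Figure D3:**
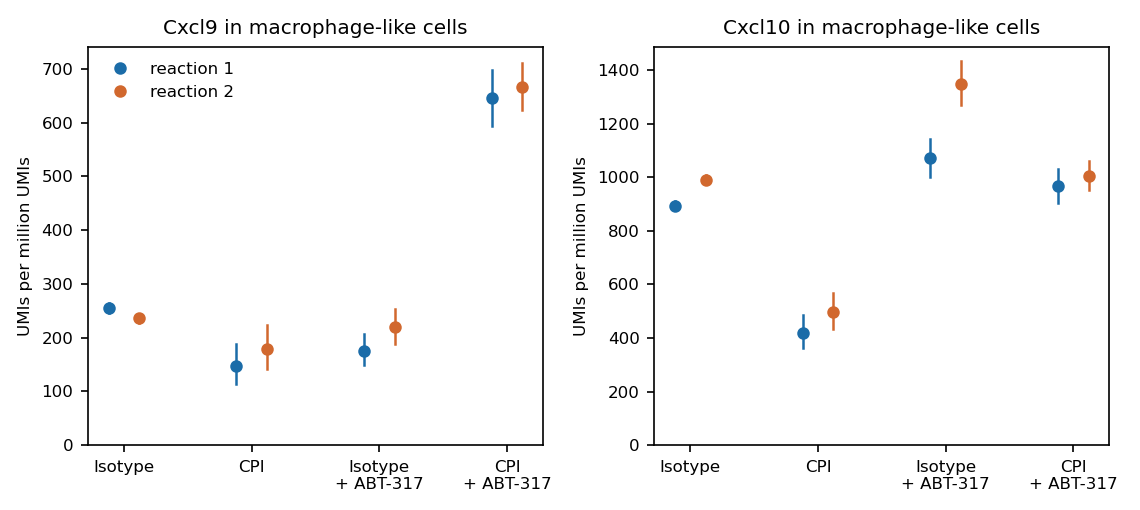
Cxcl9 and Cxcl10 in macrophage-like cells of MC38 tumors by treatment, in CPM, with 1 point per reaction and exact Poisson 95% intervals as lines. Cxcl9 with CPI + ABT-317 (645.2 and 666.2) lies above all other sums, and Cxcl10 with CPI (419 and 496) lies below all other sums.

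The macrophage-like cells with the CPI hashtag were of another kind than the rest. Cluster 10, led by Lyz1, Lyz2 and F13a1, held 208 of the 226 and 180 of the 200 of them. Genes of the monocyte list summed to 608 and 585 CPM in these cells, against 229 to 403 CPM in the other 6 sums. The 8 genes of the T cell list summed to 45.3 and 70.3 CPM with CPI and 2.22 to 12.1 CPM with the other treatments, with 2 and 1 of them at 0 with CPI, and the median depth was 1643 and 1924 UMIs with CPI and 3031.5 to 4007 otherwise. The part of these differences in the ligand levels was not tested. Without cluster 10, which was tried after the data were seen, Cxcl9 from CPI to CPI + ABT-317 was 1.14 (adjusted p = 0.253), from isotype to CPI 0.30 (adjusted p = 0.829), and the difference of the CPI effects 1.48 (adjusted p = 0.258). The same fit gave 0.40 for Cxcl10 from CPI to CPI + ABT-317 (adjusted p = 0.672) and -0.33 from isotype to CPI (adjusted p = 0.715). The calls of both ligands in comparisons with the CPI hashtag were thus lost without cluster 10, where 18 and 20 CPI barcodes remained, whereas Cxcl9 between CPI + ABT-317 and isotype + ABT-317 was 1.77 without it (adjusted p = 0.00097).

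Clusters 0, 1 and 3 were also read one by one, and values of cluster 10 by treatment are not given here. In cluster 0, Cxcl9 had 374 and 377 CPM with CPI + ABT-317 (134 and 190 barcodes), 140 and 142 CPM with isotype, and 122 and 178 CPM with isotype + ABT-317. In cluster 1 it had 820 and 1624 CPM with CPI + ABT-317 (63 and 65 barcodes), 350 and 413 CPM with isotype, and 265 and 437 CPM with isotype + ABT-317. In the cycling cluster 3 it had 1172 and 764 CPM with CPI + ABT-317 (38 and 45 barcodes), 312 and 209 CPM with isotype, and 105 and 104 CPM with isotype + ABT-317. In all 3 clusters both CPI + ABT-317 sums lay above the sums of isotype and isotype + ABT-317. Cluster 0 was the only one with at least 10 barcodes in all 8 sums, and a fit on it alone gave 1.27 for Cxcl9 between CPI + ABT-317 and isotype + ABT-317 (adjusted p = 0.0427) and -0.73 for Cxcl10 (adjusted p = 0.131). CPI barcodes of cluster 0 were 13 and 11, with 858 and 33.6 CPM of Cxcl9 from 34 UMIs in all, and allow no reading.

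More cells, and not a few high ones alone, held Cxcl9 with CPI + ABT-317. A Cxcl9 UMI was found in 41.0% (95% exact Clopper-Pearson interval 34.9 to 47.3) and 33.7% of macrophage-like barcodes with CPI + ABT-317, in 21.9% and 21.1% with isotype, in 21.7% and 17.2% with isotype + ABT-317, and in 9.29% and 11.5% with CPI. Thinned to 1000 UMIs per barcode, without barcodes under that depth, the shares were 29.4% and 22.3%, 12.6% and 12.3%, 10.8% and 9.64%, and 5.70% and 7.88% in that sequence. The order of the treatments was the same. Without the 5% of barcodes with the most Cxcl9 in each sum, CPI + ABT-317 had 436 and 366 CPM, isotype 98.1 and 87.2 CPM, isotype + ABT-317 84.4 and 65.8 CPM, and CPI 24.3 and 33.4 CPM.

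**Figure D4:**
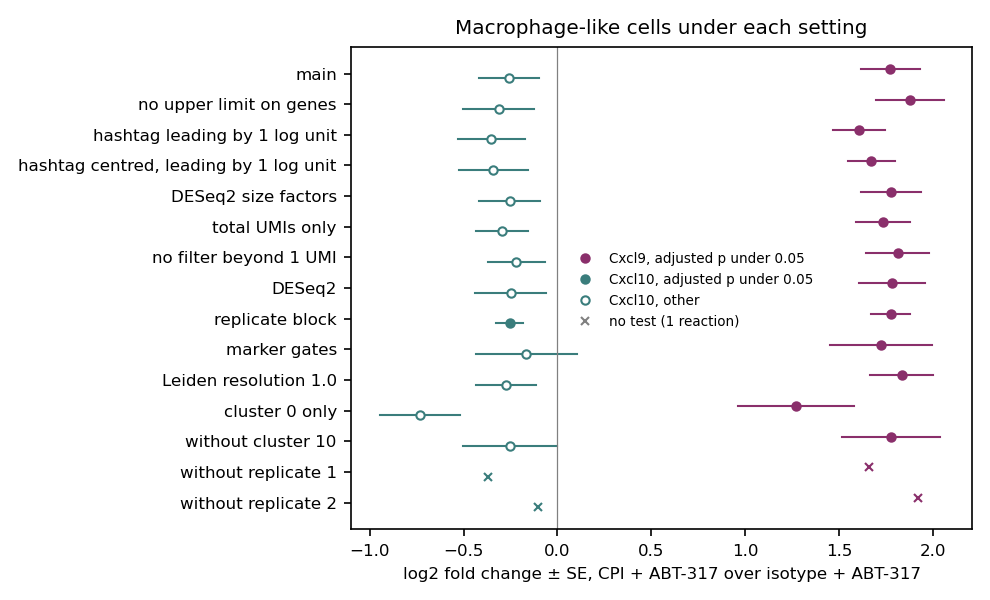
Log2 fold change of CPI + ABT-317 over isotype + ABT-317 in macrophage-like cells for Cxcl9 and Cxcl10 under the reported setting (main) and each alternative, with lines for the standard error, filled points for an adjusted p under 0.05, open points otherwise, and crosses where 1 reaction gives no test. Cxcl9 stays above 1 and filled in every tested setting, from 1.27 in cluster 0 only upward, and Cxcl10 lies between -0.73 in cluster 0 only (adjusted p = 0.131) and -0.10 without replicate 2.

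Of 14 listed genes of the IFN-γ axis, 10 were tested in macrophage-like cells. Between CPI + ABT-317 and isotype + ABT-317, 3 rose and none fell, where 2.73% of all genes passed, among them Irf1, an IFN-induced transcription factor, by 1.31 (adjusted p = 0.000603) and Socs1, a feedback inhibitor of JAK signaling, by 2.90 (adjusted p = 0.00184). The median of the tested list was 0.31 and that of all genes -0.02. Between CPI and isotype, where 22.5% of all genes passed, 3 rose and none fell, Irf1 by 1.34 (adjusted p = 3.8e-05), Jak1 by 1.05 (adjusted p = 0.000195) and Socs1 by 1.93 (adjusted p = 0.00107), where the ligands fell. From CPI to CPI + ABT-317, 1 rose and 1 fell, where 12.4% of all genes passed, the latter Jak1 by 1.00 (adjusted p = 0.00130). Without cluster 10, the differences between CPI and isotype were 1.02 for Irf1 (adjusted p = 0.116), 0.55 for Jak1 (adjusted p = 0.533) and 1.19 for Socs1 (adjusted p = 0.521). No listed gene passed between isotype + ABT-317 and isotype.

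Of 12 listed genes of other chemokine pairs and modifiers of the axis, 9 were tested in macrophage-like cells. None passed between CPI + ABT-317 and isotype + ABT-317, where 2.73% of all genes passed, with a list median of -0.07 beside -0.02 for all genes. Between CPI and isotype, where 22.5% of all genes passed, 1 rose, Pf4 (platelet factor 4, 0.93), and 5 fell, among them Cx3cr1, the fractalkine receptor, by 2.78 (adjusted p = 7.6e-06), Ccl3 by 1.38, Ccl4 by 1.28, and Cxcl16, the ligand of CXCR6, by 0.72. From CPI to CPI + ABT-317, where 12.4% of all genes passed, 2 rose and none fell: Cx3cr1 rose by 2.38 (adjusted p = 0.000122) and Cxcl11 rose by 1.52 (adjusted p = 0.0118). Without cluster 10, Cx3cr1 (-2.20, adjusted p = 0.0151) and Ccl4 (-0.81, adjusted p = 0.0416) still passed between CPI and isotype. Ccl3 (-0.70, adjusted p = 0.123), Cxcl16 (-0.35, adjusted p = 0.680) and Pf4 (1.16, adjusted p = 0.0942) then missed the threshold, as did Cx3cr1 (1.84, adjusted p = 0.0935) and Cxcl11 (0.19, adjusted p = 0.946) from CPI to CPI + ABT-317.

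In T-like cells Cxcr3 had 62.7 CPM (39 UMIs, 521 barcodes) and 106.4 CPM (49 UMIs, 396 barcodes) with CPI. Isotype T-like cells held 0 Cxcr3 UMIs in 46836 and 51893 gene UMIs (34 and 25 barcodes), which allows up to 64.1 and 57.8 CPM. The CPI level lay under this limit in reaction 1 and above it in reaction 2, and the difference missed the threshold (edgeR adjusted p = 0.327, 0.0699% of 4289 genes passing). T-like cells with CPI + ABT-317 were 1 and 14 barcodes, with 2 Cxcr3 UMIs in reaction 2. The share of T-like cells, given above, was also higher in the CPI sums, and its part in the rise of Cxcr3 over all CPI barcodes was not tested. Ifng in T-like cells had 302 and 363 CPM with CPI and 128 and 405 CPM with isotype.

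DC-like and fibroblast-like cells could be compared between CPI and isotype only, in fits added after the data were seen. In DC-like cells Cxcl9 had 59.1 and 291 CPM with CPI (19 and 17 barcodes), from 4 and 22 UMIs each in 1 barcode, and 462 and 187 CPM with isotype (75 and 64 barcodes), a difference of -0.91 (adjusted p = 0.272, 5.93% of genes passing). Cxcl10 in these cells had 59.1 and 39.6 CPM with CPI and 180 and 79.6 CPM with isotype, which did not overlap, and the difference missed the threshold (-1.46, adjusted p = 0.160). In fibroblast-like cells Cxcl10 had 135 and 139 CPM with CPI (782 and 567 barcodes) and 114 and 164 CPM with isotype (26 and 11 barcodes), and the groups overlapped (0.32, adjusted p = 0.881, 1.82% of genes passing). Cxcl9 in fibroblast-like cells had 66.7 and 22.3 CPM with CPI and 45.7 and 23.4 CPM with isotype (0.49, adjusted p = 0.901).

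Barcodes with 2500 or more genes were mostly in unnamed clusters (17190 and 12309), low in Ptprc, the leukocyte gene for CD45 (13.9 and 9.05 CPM, against 325 and 322 CPM in macrophage-like cells under 2500 genes). Cxcl10 there was 180.5 and 195.5 CPM and Cxcl9 16.6 and 15.0 CPM. For each 100 C1qa UMIs they had 132 and 140 Cxcl10 UMIs, where macrophage-like barcodes of 2500 or more genes had 25.6 and 19.3. For Cxcl9 the values were closer, 12.2 and 10.8 against 6.78 and 5.19. The part of free RNA in the ligand levels of these barcodes was not tested either. The largest unnamed cluster (5727 and 5042 barcodes) had 147 and 165 CPM of Cxcl10 beside 15.6 and 8.75 CPM of C1qa.

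**Figure D5:**
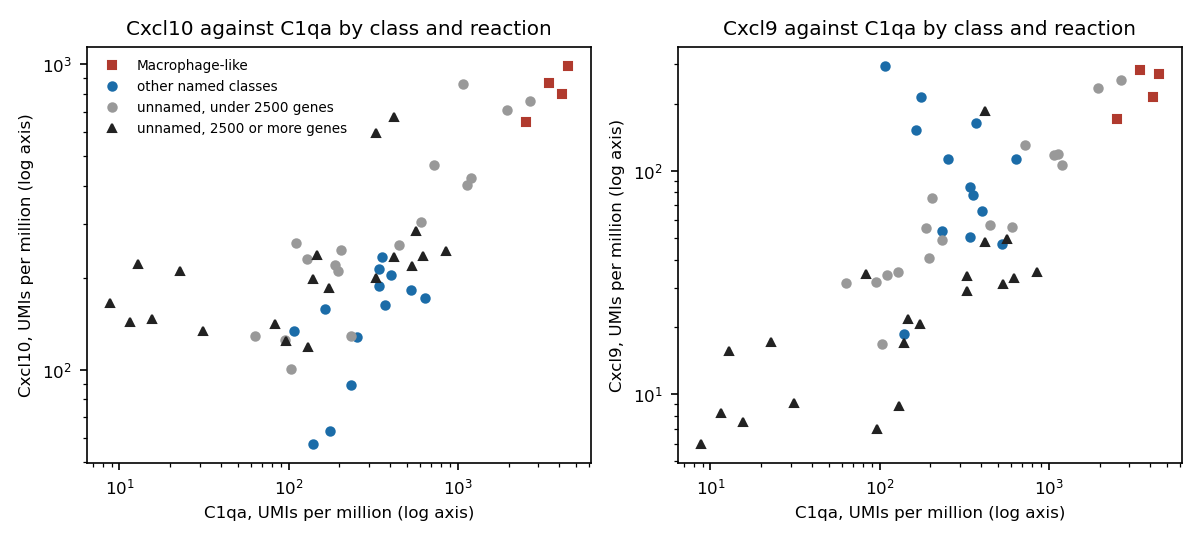
Cxcl10 (left) and Cxcl9 (right) against C1qa, in CPM on log axes, with 1 point per class or unnamed cluster of at least 50 barcodes and reaction. Unnamed clusters of 2500 or more genes keep Cxcl10 between 119 and 673 as C1qa falls to 8.75, while their Cxcl9 falls to 5.95.

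By treatment, Cxcl10 in these gene-rich unnamed barcodes had 143 and 143 CPM with isotype, 324 and 376 CPM with CPI (70 and 49 barcodes), 241 and 263 CPM with CPI + ABT-317, and 149 and 186 CPM with isotype + ABT-317. The 2 groups with CPI lay above the 2 without it, which was not so in macrophage-like cells. In reaction 2, 1 CPI barcode held 176 of 399 Cxcl10 UMIs, and without the 5% of barcodes with the most Cxcl10 in each sum CPI had 176 and 159 CPM, CPI + ABT-317 131 and 142 CPM, isotype 74.8 and 71.1 CPM, and isotype + ABT-317 66.7 and 80.9 CPM. In a fit added after these values were seen, Cxcl10 rose by 1.11 from isotype to CPI (adjusted p = 0.00874, 4.51% of genes passing), and between CPI + ABT-317 and isotype + ABT-317 the difference was 0.52 (adjusted p = 0.32, 0.136% passing). Cxcl9 had 13.3 and 9.75 CPM with isotype, 31.9 and 33.0 CPM with CPI, 21.0 and 16.5 CPM with CPI + ABT-317, and 5.95 and 6.58 CPM with isotype + ABT-317. It rose by 1.30 from isotype to CPI (adjusted p = 0.0222) and by 1.52 from isotype + ABT-317 to CPI + ABT-317 (adjusted p = 0.039). In the CPI sums, 1 barcode held 21 of 39 and 16 of 35 Cxcl9 UMIs. Without the 5% of barcodes with the most Cxcl9 in each sum, CPI had 8.59 and 11.1 CPM, CPI + ABT-317 3.63 and 3.25 CPM, isotype 4.89 and 1.68 CPM, and isotype + ABT-317 0.991 and 0.152 CPM.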

How the data were processed

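Gene and antibody counts of 5 droplet reactions (10x Genomics 5′ version 2) were used as the authors deposited them, UMI counts per gene and barcode with no normalization. The files were written by Cell Ranger 7.1.0 (TDLNs) and 8.0.1 (MC38 tumors), the submitters' processing notes name Cell Ranger 3.1.0 with GRCm38 (mm10), and the gene sets of the 2 tissues differ. Gene UMIs were 18055617 to 127052825 per TDLN reaction and 377184807 and 435031691 per tumor reaction. The members and gene lists were chosen with earlier results of these data known.

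Barcodes were clustered per tissue on log counts without the 3 members and the 2 gene lists (Leiden resolution 0.5; Python 3.11.15, scikit-learn 1.9.0, leidenalg 0.10.2, igraph 0.11.9). A class needed 3 of its markers at 1.5 times their level elsewhere and in 1% of barcodes and a mean log2 ratio of 0.4. Of the classes that met this, the one with most markers among the top 10 genes was taken, and a cluster stayed unnamed where another class had more. Genes said to lead a cluster, and Ptprc and C1qa as references, were chosen after their values were seen. Marker gates took barcodes with at least 2 UMIs of 1 list and fewer than 2 of the other lists. Barcodes with several hashtags (4815 and 1702 under 2500 genes, 14846 and 6996 over all depths) or none (1694 and 1434, 2090 and 2033 over all depths) were left out of treatment comparisons. Class levels kept doublets, and leaving out barcodes with several hashtags (tumors) or with UMIs of both T and B cell lists (TDLNs) was an alternative. Hashtags were called by 2-component fits of log counts.

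Counts summed per treatment and reaction, with at least 10 barcodes per sum, were tested with edgeR 4.0.16 in R 4.3.3 (TMM, filterByExpr, quasi-likelihood test, Benjamini-Hochberg over all genes tested, adjusted p of 0.05), with DESeq2 1.42.0 as an alternative. In simulated counts for macrophage-like CPI + ABT-317 against CPI (7840 genes), edgeR recovered 43 of 100 genes changed 2-fold and 88 of 99 changed 4-fold, with 4 false calls. Reaction numbers paired the sums: deviations from the treatment means correlated between all 6 pairs of treatments in the same reaction (r = 0.154 to 0.474 over all barcodes and 0.120 to 0.423 in macrophage-like cells). Named genes were the 3 members, up to 4 genes of each list by smallest adjusted p, and the 5 genes most like each member among those with at least 10 CPM, in classes of at least 50 barcodes. Values of some listed or alike genes are not reported here. A count of 0 was given a limit of 3 counts. Intervals (scipy 1.17.1) and limits cover counting error only.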

Additional observations from a re-analysis of the deposited data

Results flagged for a closer look

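The effect of CPI on the ligands differed between sums with and without ABT-317 in 3 results, each by a test of the difference itself. Of all genes tested, 5.51% passed this test in macrophage-like cells and 21.1% over all barcodes. The calls over all barcodes therefore do not single the ligands out. In macrophage-like cells the Cxcl9 effect with ABT-317 exceeded that without it by 2.37 on the log2 scale, and the difference was 1.48 (adjusted p = 0.258, edgeR) without cluster 10, which holds most macrophage-like barcodes of the CPI hashtag. Over all barcodes under 2500 genes, the difference was 3.91 for Cxcl9 (adjusted p = 0.000905, edgeR) and 2.38 for Cxcl10 (adjusted p = 0.00422), in sums whose shares of macrophage-like, T-like and fibroblast-like cells also differed. The part of that makeup in these differences was not tested.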

How the results depend on the processing

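Of the values compared with alternatives, 197 of the main ones kept their direction, their side of the threshold or their level, 9 fell short of the threshold, 6 newly passed it, 7 moved and 4 changed sign. Values with a reaction left out were among these and were held to the spread between the reactions. With so few reactions they stay within it almost by arithmetic, so they are no test of stability. A value that passed in neither fit counted as kept whatever its sign. Alternatives on clusters and on centred hashtag counts were chosen after seeing the data, and the cause of a change was not tested. In macrophage-like cluster 0 alone, with 13 and 11 CPI barcodes, Cxcl9 was -0.051 from CPI to CPI + ABT-317, 1.42 from isotype to CPI and -0.15 for the difference of CPI effects, and Cxcl10 was 0.26 (adjusted p = 0.774, edgeR) and -0.48 (adjusted p = 0.431) for the first 2. Without cluster 10 the same Cxcl9 values were 1.14, 0.30 and 1.48, and those of Cxcl10 0.40 and -0.33. The fall of Cxcl9 with CPI missed the threshold with centred hashtags (-0.23) and marker gates (-0.45), and over all barcodes with no upper limit on genes (-0.020), where Cxcl9 from CPI to CPI + ABT-317 was -0.13. The Cxcl10 difference of CPI effects passed with DESeq2 (0.82), with no filter (0.99), with total UMIs (0.74) and with the replicate block (0.80). The block also brought Cxcl10 past the threshold for CPI + ABT-317 over isotype + ABT-317 (-0.25) and for isotype + ABT-317 over isotype (0.32), and beside these and the Cxcl9 values given with the results it changed no other call of the members.

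Leaving out 1 reaction gives no test. The values then ran from 1.66 to 1.92 for Cxcl9 between CPI + ABT-317 and isotype + ABT-317 in macrophage-like cells, from 1.91 to 2.17 from CPI to CPI + ABT-317, from -0.82 to -0.40 from isotype to CPI, and from 2.06 to 2.74 for the difference of effects. Calls over all genes depended on the setting: 5 macrophage-like contrasts gave 1762, 973, 214, 432 and 2 calls (CPI over isotype, CPI + ABT-317 over CPI, CPI + ABT-317 over isotype + ABT-317, the difference, ABT-317 over isotype), DESeq2 gave 1367, 794, 212, 399 and 6, marker gates gave 1027, 424, 76, 102 and 1, the block gave 2487, 1632, 613, 1076 and 114, no filter gave 2087, 1153, 329, 703 and 39, cluster 0 alone gave 199, 48, 66, 16 and 2, and leaving out cluster 10 gave 169, 43, 175, 15 and 3. The same contrasts over all barcodes gave 5005, 3797, 19, 2638 and 0 calls, with DESeq2 4292, 3310, 123, 2492 and 33, with the block 6901, 5424, 343, 4195 and 1427, with no filter 6242, 4567, 314, 3338 and 1025, with no upper limit on genes 8576, 9761, 253, 5194 and 1885, and with the leading hashtag 3857, 2693, 8, 1636 and 1. With no upper limit on genes, Cxcl9 in macrophage-like cells was 248.7 CPM. Cxcl10 in DC-like cells was 513.7 CPM at Leiden resolution 1.0 (98.6 CPM as reported, mean of the reactions), and Cxcr3 in macrophage-like cells was 1.40 CPM with doublets left out and 1.71 CPM with marker gates (2.69 CPM as reported). Thinning moved the shares of macrophage-like barcodes with Cxcl9 to 12.5% with isotype and 25.8% with CPI + ABT-317. With isotype controls as the background, the ratio of CD183 in T-like to macrophage-like cells was 1.03. T-like cells with ABT-317 were too few to test Cxcr3 there, and only CPI and isotype were compared.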
